A study of Mus musculus with 10 samples.

Results

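Sulf1 and Sulf2 encode the extracellular sulfatases of heparan sulfate, and their surroundings were described here by the open chromatin regions found in muscle stem cells after prostaglandin E2 (PGE2). The members were the regions whose strongest summit lay within 100 kb of the span of either gene, in a list of accessible regions from young cells and a list from aged cells. Of 131656 regions in the young list, 57 belonged to Sulf1 and 36 to Sulf2. Of 117284 regions in the aged list, 91 belonged to Sulf1 and 41 to Sulf2. The 2 genes were chosen by the fold and overlap of these regions, so those values are given as a description, with no test.

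ATAC-seq, which marks open DNA with a transposase, was run on muscle stem cells sorted from C57BL/6 mice by α7-integrin and CD34. All cells were held for 2 h in medium with serum and basic fibroblast growth factor, with PGE2 or with 0.1% DMSO as vehicle. By the labels, young cells (mice of 8 to 20 weeks) gave 2 libraries with vehicle and 2 with PGE2, and aged cells (mice of 20 to 25 months) gave 3 of each. The lists cover the young PGE2 and aged PGE2 groups, and the vehicle groups were not analysed here, so age alone and age in the answer to PGE2 cannot be told apart. With a single list for each age and no values by library, nothing below has a replicate error, and intervals cover counting error only. Which libraries entered each list, and whether the mice were pooled, is not given in the sources used here.

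Heparan sulfate is a sugar chain on cell surface and matrix proteins that holds growth factors through its sulfate groups. Sulf1 and Sulf2 are secreted enzymes that remove the 6-O-sulfates of finished chains outside the cell. By this editing they are known to weaken signalling by fibroblast growth factors and to release Wnt ligands, and in muscle they are known to act on the differentiation of satellite cells and on regeneration.

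Sulf1 lies on chromosome 1 (12692197 to 12861192 in GRCm38, a span of 169 kb) and Sulf2 on chromosome 2 (166073899 to 166155683, 81.8 kb). The next protein-coding gene above Sulf1 is Slco5a1, and Ncoa3, a nuclear receptor coactivator gene, ends just below Sulf2. The sequence around both listed starts of Sulf2 is shown because, of the regions described here, the one over that start was broken into the most pieces in the other list. Both windows run from 250 bases before to 50 bases after a start, on the reverse strand, and come from RefSeq on GRCm38.p6. Capitals mark the E-box letters CANNTG and the GC-box letters GGGCGG, searched on both strands. Sulf1 had no entry matched in the same table.
Sulf2 start 1, chr2:166155634-166155933, reverse strand: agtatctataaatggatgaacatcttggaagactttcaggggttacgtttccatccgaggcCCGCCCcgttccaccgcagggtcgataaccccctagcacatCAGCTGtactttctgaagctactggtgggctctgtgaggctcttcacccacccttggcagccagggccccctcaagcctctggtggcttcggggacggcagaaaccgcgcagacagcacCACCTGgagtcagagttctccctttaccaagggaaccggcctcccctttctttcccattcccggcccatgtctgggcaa
Sulf2 start 2, chr2:166155236-166155535, reverse strand: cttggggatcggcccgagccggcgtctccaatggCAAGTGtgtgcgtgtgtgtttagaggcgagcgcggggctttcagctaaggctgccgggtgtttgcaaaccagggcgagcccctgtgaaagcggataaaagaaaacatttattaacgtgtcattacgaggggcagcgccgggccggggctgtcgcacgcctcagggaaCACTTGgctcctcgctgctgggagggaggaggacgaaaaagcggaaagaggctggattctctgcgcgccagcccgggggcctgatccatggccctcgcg

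The first window held 2 E-box matches and 1 GC-box match, and the second 2 E-box matches and no GC-box. Of 32851 promoter windows of the same length, 72.3% held an E-box match and 35.7% a GC-box match. GC content was 58.0% in the first window and 62.3% in the second, against a median of 52.7%. The CG pair occurred 12 times and 26 times, against a median of 7, and 94.6% of windows held at least 1. Neither window held TGACG, the core of the cAMP response element (20.8% of all windows), or the AP-1 letters TGACTCA (5.20%). TATAAA was found once in the first window (13.6% of all windows) and CCAAT once in the second (37.4%). The GC-box match contains a CG pair, no other motifs overlapped each other in these windows, and a match in letters is not a bound site.

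The gene-end regions of Sulf1 and Sulf2 differed widely in strength within each list. Fold here is the deposited height of a summit relative to background, and the percentile is its rank by fold within its own list, in percent. Fragment counts were worked out from the folds, and their unit is not given in the sources. At the lower-numbered end of Sulf1 the young list had a region of 3143 bp (12691694 to 12694836) with a fold of 131, resting on a summit of 2972 fragments. It ranked 894th of the young list by fold. In the aged list the region at the same end was 3071 bp wide (12691695 to 12694765), with a fold of 121 on 2521 fragments, and ranked 205th. The summits lay 12 bp apart. Ranks in lists of different length, and folds from separate lists, show no change between ages.

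The start of Sulf2 was near the middle of both lists. In the young list 1 region of 1732 bp (166154086 to 166155817) covered it, with a fold of 5.33 and a percentile of 53.1. The aged list had 4 separate regions over the same stretch, with folds of 2.55, 2.02, 3.32 and 4.37 in rising coordinate order. The strongest of these (166155406 to 166155806) stood at a percentile of 50.3 and rested on 90 fragments, against 120 for the young region. The young summit lay 14 bp from start 1 and the aged summit 7 bp from it. Of the 300 bases printed for start 1, 184 were inside the young region and 173 inside the aged one. For start 2 these numbers were 300 and 130. Young regions overlapped by more than 1 aged region made up 10.8% of all overlapped young regions, and those overlapped by 4 or more made up 0.287%. These shares take in regions of all widths (median 435 bp in the young list), and none was counted for regions as wide as 1732 bp. Among protein-coding genes with a gene-end region (at a listed start, or at either end of the span where no start was listed), a weaker one than that of Sulf1 was found for 93.5% (young list) and 98.6% (aged list). For Sulf2 these shares were 8.34% and 8.83%.

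Several strong sites around Sulf1 were found in both lists, though most of its regions were not strong. Below the median fold of their own list were 31 of its 57 young and 55 of its 91 aged regions. The strongest regions after the one at the lower-numbered end lay inside the span, 23.4 kb and 26.1 kb from that end. The first of this pair had a young fold of 82.9 (12714570 to 12716233) and an aged fold of 94.4 (12714695 to 12716286). The other had a young fold of 69.9 (12717832 to 12719871) and an aged fold of 87.9 (12717840 to 12720008). A further region 21.0 kb in had folds of 38.9 and 41.5, so these 3 sites lay close together, toward the lower-numbered end of the span. Outside the gene, a site 79.9 kb below the span had a fold of 52.8 in each list. Above the span, a site between Sulf1 and Slco5a1 had folds of 39.9 (young) and 40.4 (aged), and a site inside Slco5a1 had folds of 31.7 (young) and 50.8 (aged). The last may belong to either gene, as regions were assigned by distance.

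**Figure D1:**
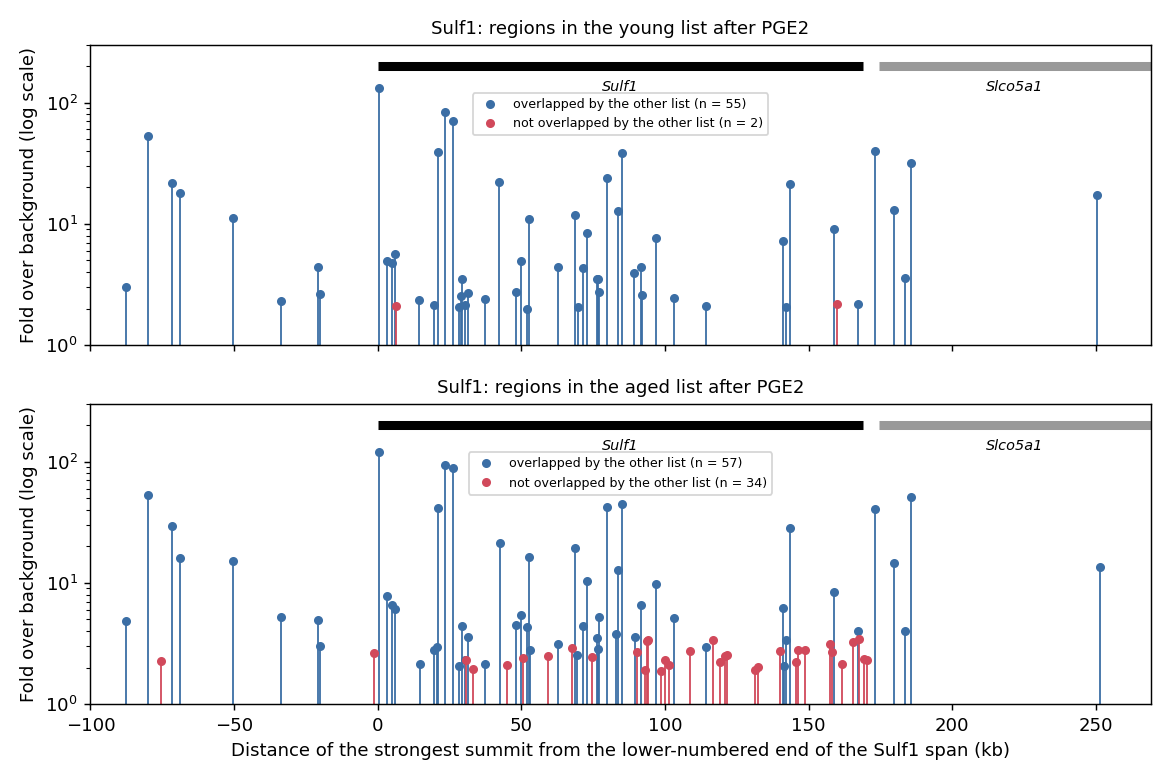
Fold over background of each region within 100 kb of Sulf1 (log scale), against the distance of its strongest summit from the lower-numbered end of the span in kb, in the young list (top) and the aged list (bottom). Blue regions were overlapped by the other list and red regions were not; the tall sites stand at the same places in both panels, while 34 weak red sites appear in the aged panel and 2 in the young panel.

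All Sulf1 regions of 10-fold or more were found in both lists, 19 of 19 in the young list and 20 of 20 in the aged list. In the lists as a whole, 0.0733% of young and 0.0101% of aged regions of that strength had no overlap, so this share is near the background. Of the 10 strongest aged regions, 9 overlapped one of the 10 strongest young regions. The strongest summits of an overlapped aged region and its young counterpart were a median of 15 bp apart, and for 35 of 57 aged regions they were within 20 bp. The strongest 10% of each list by fold held 7 of the 57 young and 11 of the 91 aged regions of Sulf1.

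The lists differed around Sulf1 in the number of weak regions. Fold was taken over 1 uniform background for each list, so more DNA copies of a locus and more open chromatin there cannot be told apart. The aged list held 34 Sulf1 regions with no young overlap, 37.4% of its 91 (95% exact binomial interval 27.4 to 48.1). In the whole aged list 10.7% of regions had no young overlap. The young list held 2 with no aged overlap, 3.51% of its 57 (0.428 to 12.1), against 28.2% in the whole young list. Neighbouring regions are not independent, the intervals do not stand for mice, and as overlap was used to choose the genes, nothing is read from the shares beyond their size.

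In length, the Sulf1 regions covered 43.0 kb (young) and 55.9 kb (aged), a young to aged ratio of 0.770. For the whole lists that ratio was 1.29. The aged regions with no young overlap made up 9.83 kb, or 17.6% of the aged length at Sulf1, while such regions made up 3.90% of the length of the whole aged list. In the young list they were 0.298 kb, or 0.693%, against 10.7% of the whole young length. Counted as joint sites, 52 of 88 places around Sulf1 were open in both lists, 34 in the aged list alone and 2 in the young list alone. Of all 142429 joint places, 65.1% were open in both lists, 8.85% in the aged list alone and 26.1% in the young list alone.

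The 34 aged regions were weak, with folds from 1.87 to 3.46 and a median of 2.47, close to the median of 2.40 for such regions in the whole aged list. Their summits rested on 38 to 71 fragments, where the smallest summit in the aged list had 37. The young list itself began at a fold of 1.76 and 39 fragments. Their widths ran from 149 to 706 bp, with a median of 260 bp. At 3-fold or more, 6 of 52 aged regions of Sulf1 had no young overlap, compared with 2.40% of aged regions of that strength, and 0 of 37 young regions had no aged overlap, compared with 14.0%. The 3 strongest were at 12859549 to 12859878 (3.46-fold), 12808667 to 12809178 (3.41-fold) and 12786253 to 12786416 (3.36-fold), all inside the span. A young region lay 183 bp, 2058 bp and 1894 bp from them. The 2 young regions with no aged overlap had folds of 2.20 (12852017 to 12852165) and 2.11 (12698505 to 12698653), and aged regions lay 486 bp and 256 bp away.

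Most of the aged regions with no young overlap lay toward the higher-numbered end of the gene. Inside the span there were 30 of the 34. In 4 equal parts of the span, numbered 1 to 4 by rising coordinate, there were 2, 5, 12 and 11, with 2 more in the 100 kb below and 2 in the 100 kb above. These parts were drawn after the values were seen. Part 3 held 18 aged and 7 young regions, and part 4 held 17 and 6, while part 1, with the strongest region, held 17 and 16. Of the 34 regions, 7 lay within 500 bp of a young region, 12 within 1 kb, and 5 more than 5 kb from any, with the farthest 9001 bp away.

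**Figure D2:**
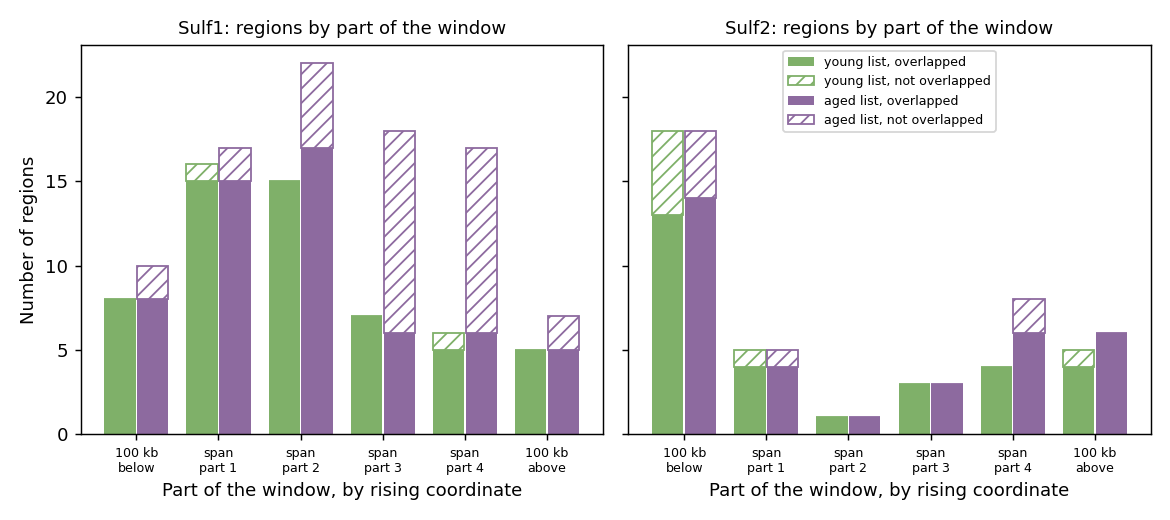
Number of regions in each part of the window around Sulf1 (left) and Sulf2 (right), with 100 kb flanks and 4 equal parts of the gene span; solid bars are regions overlapped by the other list and hatched bars are those that were not. The hatched aged bars of Sulf1 hold 12 and 11 regions in parts 3 and 4, while no part of the Sulf2 window holds more than 5 in either list.

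Taking the 58642 strongest regions of each list, so that both lists were equally long, left 23 young and 37 aged regions at Sulf1. Of these, 0 young (15.4% of the shortened young list) and 14 aged (11.1% of the shortened aged list) had no overlap. None of the 14 was among the 34 above. They had folds from 4.32 to 7.83 and overlapped young regions that fell outside the strongest 58642. At a deposited −log10 q of at least 5, 29 of 77 aged regions had no young overlap (8.99% of all aged regions at that threshold), of which 24 were among the 34. At the same threshold 3 of 49 young regions had no aged overlap (28% of all young regions).

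Stricter rules of overlap raised the counts in both lists. With a reciprocal overlap of 50%, 15 of 57 young regions of Sulf1 (41.2% of all young regions) and 49 of 91 aged ones (33.9% of all aged regions) had none. Sulf2 then had 11 of 36 young and 16 of 41 aged. With strongest summits within 100 bp as the rule, Sulf1 had 10 young (36% of all young regions) and 44 aged regions (28.2% of all aged regions) with no match, and Sulf2 had 9 and 14. With the deposited rows left unmerged, 2 of 126 young rows of Sulf1 (16.3% of all young rows) and 45 of 177 aged rows (6.41% of all aged rows) had no overlap, and Sulf2 had 7 of 58 and 7 of 56.

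Set beside the 21887 protein-coding genes counted by the same rule, Sulf1 had more aged regions without a young overlap than 99.95% of genes. The median gene had 1 such aged region and 4 such young regions. More aged than young regions without an overlap were found around 7.68% of genes. The aged excess at Sulf1, 34 against 2, was equalled or passed by 11 genes including itself. The other 10 were Zfp993, Zfp978, Zfp982, Zfp981 and Zfp992 on chromosome 4, Ass1 and its neighbour Hmcn2 on chromosome 2, Smok2b and Smok2a on chromosome 17, and Dlg2 on chromosome 7. Genes with long spans collect more regions, genes with shared windows count the same regions more than once, and Sulf1 had a window of 369 kb. In its number of regions of any kind, Sulf1 stood above 98.1% (young list) and 99.8% (aged list) of genes. Among 7838 genes with at least 20 aged regions, 0.829% had a share without young overlap as high as that of Sulf1.

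**Figure D3:**
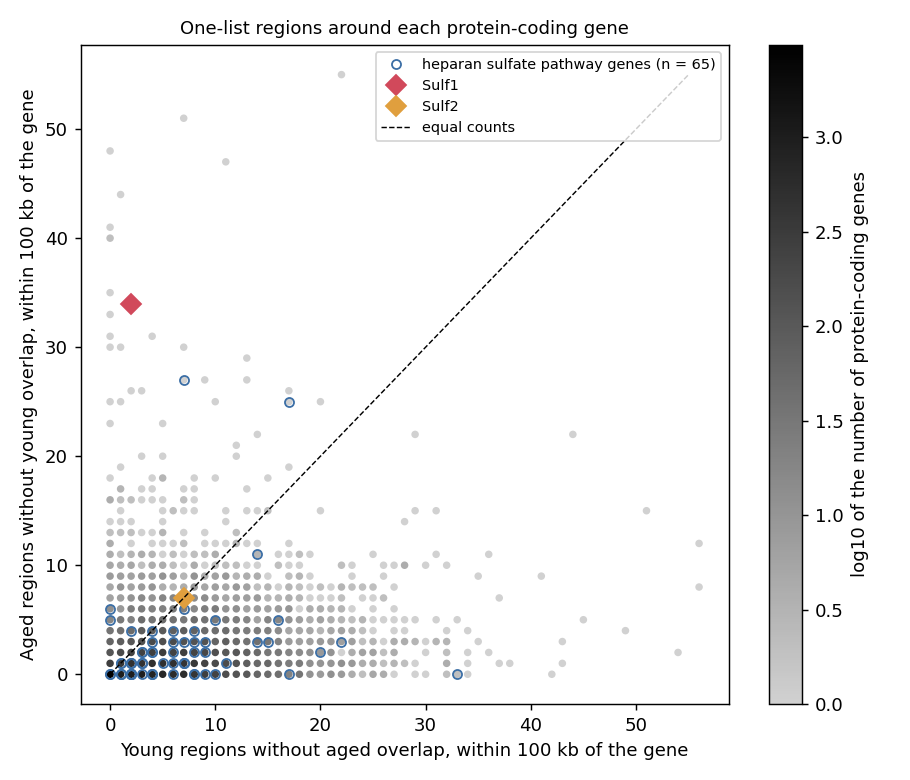
Number of aged regions without young overlap against young regions without aged overlap within 100 kb of each protein-coding gene, shaded by the log10 number of genes at each point, with heparan sulfate pathway genes circled. Sulf1 stands at 2 young and 34 aged regions, far above the line of equal counts, and Sulf2 lies on the line at 7 and 7.

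Sulf2 had weaker sites, and 0 of its regions were in the strongest 10% of either list. The strongest region within 100 kb was not at the gene. It lay 81.3 kb below the span, at the lower-numbered end of Ncoa3 and inside the predicted gene LOC115489489, with a young fold of 32.7 (165992199 to 165993502) and an aged fold of 19.8 (165992125 to 165993160). Inside the Sulf2 span the strongest young region was at 166115727 to 166116764, with a fold of 15.1, and the strongest aged region was at the same site (166115770 to 166116829), with a fold of 18.6. Next came a site 77.8 kb from the lower-numbered end, with folds of 14.7 (young) and 11.6 (aged). Beyond the start, a site inside the noncoding gene Gm30320 had folds of 9.82 (young) and 4.52 (aged). Both sites inside the span were therefore stronger than the start region of Sulf2 in the same list.

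**Figure D4:**
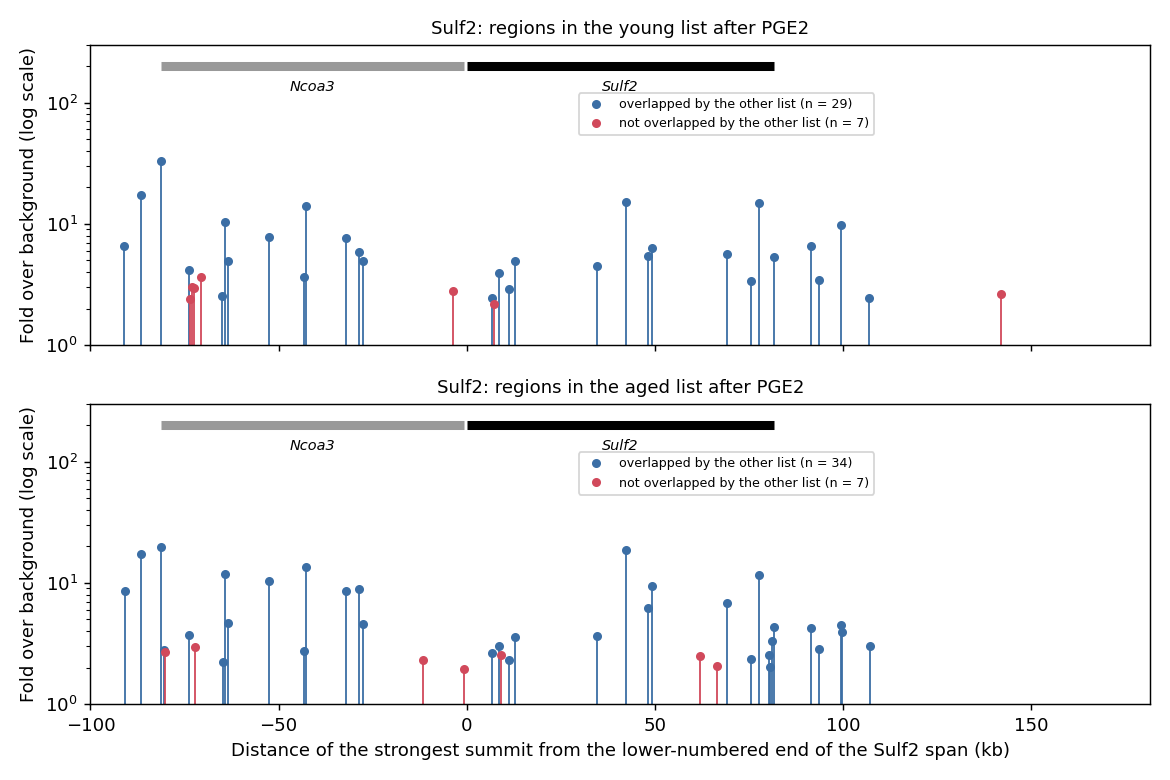
Fold over background of each region within 100 kb of Sulf2 (log scale), against the distance of its strongest summit from the lower-numbered end of the span in kb, in the young list (top) and the aged list (bottom), with the span of Ncoa3 in grey. The tallest site in both panels lies at the far end of Ncoa3, 81.3 kb below Sulf2, and 7 red sites without overlap appear in each panel.

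Around Sulf2 the lists held equal numbers of one-list regions when any overlap of 1 bp counted, though not under 7 of the 9 other settings tried (more aged in 6, more young in 1). The young list had 7 of 36 regions with no aged overlap (19.4%, 95% exact binomial interval 8.19 to 36.0), and the aged list 7 of 41 with no young overlap (17.1%, 7.15 to 32.1). In the whole lists these shares were 28.2% and 10.7%. All 6 young and all 7 aged regions of 10-fold or more were found in both lists. Covered length was 17.5 kb (young) and 17.2 kb (aged), a young to aged ratio of 1.02, against 1.29 for the whole lists. Joint places numbered 43, of which 29 were open in both lists (67.4%, against 65.1% of all joint places).

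The one-list regions of Sulf2 were weak and lay mostly outside the gene. In the young list the 3 strongest were inside Ncoa3, at 166003127 to 166003324 (3.65-fold), 166000813 to 166001011 (2.99-fold) and 166001202 to 166001456 (2.95-fold). In the aged list the strongest was also inside Ncoa3 (166001514 to 166001704, 2.98-fold), 58 bp from a young region with no aged overlap. The next were at the lower-numbered end of Ncoa3 (165993632 to 165993785, 2.69-fold) and inside Sulf2 (166082886 to 166083034, 2.55-fold). Inside the Sulf2 span there were 1 young and 3 aged regions without an overlap. The farthest was a young region at 166215958 to 166216161 (2.64-fold), with no aged region within 34872 bp.

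**Figure D5:**
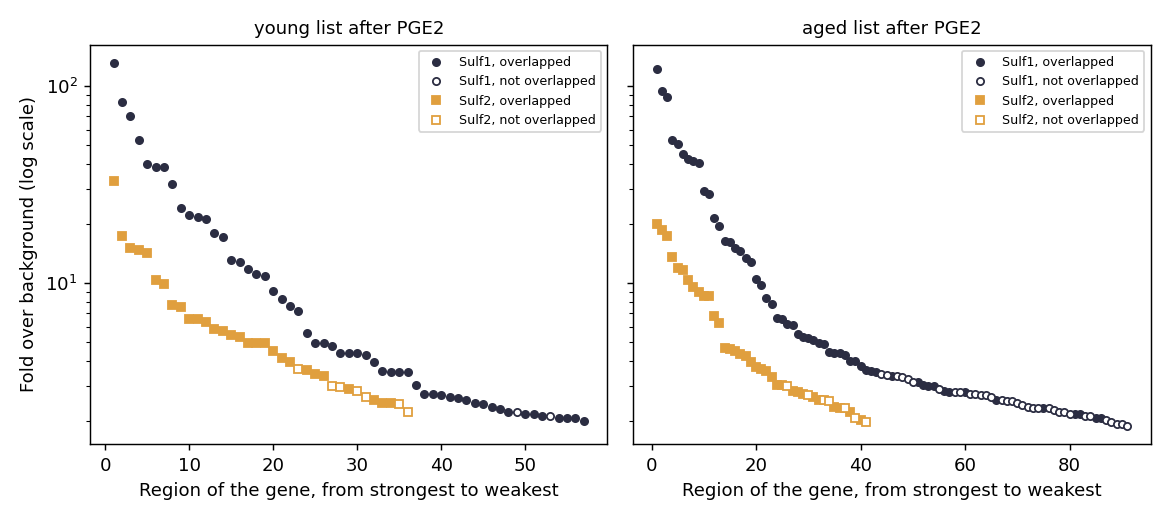
Regions of Sulf1 and Sulf2 ordered from strongest to weakest, with fold over background on a log scale, in the young list (left) and the aged list (right); open symbols are regions not overlapped by the other list. The Sulf1 curve starts at 131 and 121 and runs longer than that of Sulf2, which starts at 32.7 and 19.8, and every open symbol lies below 4-fold.

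Compared within one list, Sulf1 had more regions and more of 10-fold or above than Sulf2, over a longer window, but a lower median fold. In the young list 57 regions in 369 kb stood against 36 in 282 kb, and regions of 10-fold or more numbered 19 and 6. In the aged list the counts were 91 and 41, and 20 and 7 at 10-fold or more. The median fold was lower at Sulf1 (4.40 young, 3.36 aged) than at Sulf2 (4.93 young, 3.65 aged). The share without overlap in the aged list was 37.4% for Sulf1 and 17.1% for Sulf2, a difference that was not tested.

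Genes with counts most like those of Sulf1 were sought among 1357 genes of similar span, by the distance over 4 counts (young, aged, and those without overlap in each) on the log2(count + 1) scale. Nearest were Sv2b, with 34 young and 53 aged regions of which 3 and 20 had no overlap (distance 1.36), Tshr (1.57) and Ppfibp2 (1.74). Tshr had 3 young and 16 aged regions without an overlap and Ppfibp2 had 1 and 16. For Sulf2, among 2670 genes, the nearest were Mindy4 (0.144), Ccdc85c (0.162) and Cd47 (0.220). The Sulf2 counts had closer matches than those of Sulf1, but among more genes. As overlap was used to choose the 2 genes, nothing further is read from these distances.

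Other genes of the heparan sulfate pathway were mostly open at a gene end in both lists, that is, with a region within 1 kb of a listed start or, where none was listed, of either end of the span. This was so for 59 of 65 genes, with 2 in the young list alone, 0 in the aged list alone and 4 in neither. Over all protein-coding genes the shares were 63.5%, 2.80%, 0.411% and 33.3%. The median gene-end fold of the pathway was 42.6 (young) and 28.4 (aged), close to the 44.5 and 29.2 of all genes with one. The gene-end region of Sulf1 stood above these medians and that of Sulf2 below them.

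Of 11 chain synthesis genes, 11 were open at a gene end in both lists. The strongest in each list were Ext1, a subunit of the chain polymerase (153 young, 98.6 aged), and Fam20b, a xylose kinase of the linker (102 and 60.1). The weakest was B4galt7, a linker galactosyltransferase, in the young list (19.8) and Extl1, an Ext1 relative, in the aged list (10.5).

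Among genes that sulfate or epimerise the chain, 13 of 16 were open at a gene end in both. Hs2st1, the 2-O-sulfotransferase, led with 207 (young) and 140 (aged). Hs3st3b1, a 3-O-sulfotransferase, followed with 145 and 84.9. Hs3st5, another 3-O-sulfotransferase, had one in the young list alone at 6.69-fold and was weakest there. Ndst4, an N-deacetylase and N-sulfotransferase, was weakest in the aged list at 2.79-fold. Ndst3 and Hs3st2 had none. The 6-O-sulfotransferases, which add the sulfate that Sulf1 and Sulf2 remove, had regions in both lists at Hs6st1 (62.4 and 51.9), Hs6st2 (30.7 and 24.3) and Hs6st3 (44.5 and 29.8).

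Of 8 genes for chain cleavage and sulfatase activation, 7 were open at a gene end in both. Arsk, a lysosomal sulfatase gene, had 83.2 (young) and 60.0 (aged). Heparanase, encoded by Hpse, was weakest at 9.16 and 8.41, and Hpse2 had none. Sumf1, which encodes the enzyme that activates sulfatases, had 23.4 and 11.5.

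All 13 core protein genes were open at a gene end in both lists. The syndecan genes Sdc4 (111 young, 45.3 aged) and Sdc2 (97.2 and 54.9) led, and Sdc3, a syndecan of satellite cells, was weakest (7.31 and 4.47). Of 17 genes for heparan sulfate binding signals and their receptors, 15 had one in both lists. Fzd7, a Wnt receptor gene, led (142 and 94.9), followed by Met, the receptor gene for hepatocyte growth factor (108 and 59.4). Grem1, an inhibitor of BMP signals, had one in the young list alone and was weakest there (2.11). Wnt7a was weakest in the aged list (2.35), and Fgf6 had none.

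An aged excess of one-list regions was about as common in the pathway as over all genes. More aged than young regions without an overlap were found around 5 of 65 genes (7.69%), against 7.68% of all protein-coding genes. These 5 were named after their values were seen. Hs6st3 had 27 aged against 7 young, Ext1 had 25 against 17, Hs3st1 had 6 against 0, the gene of hepatocyte growth factor, Hgf, had 5 against 0, and Extl3 had 4 against 2. Around 54 genes the young regions were more numerous, and around 6 the counts were equal.

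Gene-end regions at markers of cell types are given as a description. They cannot identify the sorted cells, since 63.5% of all protein-coding genes had such a region in both lists. Itga7 and Cd34, listed among the stem cell genes, encode the proteins used for sorting. Muscle stem cell genes were open at a gene end in both lists for 8 of 8, with folds from 26.7 to 78.1 (young) and from 16.6 to 61.7 (aged). Fibroblast genes had one in both lists for 6 of 6 (2.38 to 129 young, 2.55 to 98.9 aged), endothelial genes for 3 of 6 (8.01 to 58.6 and 2.69 to 42.5) and immune genes for 1 of 6 (Cd68, 40.0 and 11.8). Smooth muscle genes had one for 3 of 4 (22.1 to 48.2 and 13.2 to 50.2) and glial genes for 2 of 4 (28.6 to 62.8 and 30.4 to 35.7). The pan-immune marker Ptprc and the endothelial markers Pecam1 and Emcn had none in either list. The endothelial genes Tek (58.6 young, 42.5 aged), Cldn5 (10.6 and 6.78) and Kdr (8.01 and 2.69) had one in both, and Cdh5 in the young list alone. Aged regions without an overlap outnumbered young ones around 2 of 6 fibroblast genes, Dcn (8 against 1) and Lum (5 against 2), around 1 of 8 stem cell genes (Vcam1, 5 against 1), 1 of 6 endothelial genes (Emcn), 1 of 4 smooth muscle genes (Kcnj8), and 0 of 6 immune and 0 of 4 glial genes. Over all protein-coding genes such an excess was found around 7.68%. Genes with shared windows count the same regions more than once, and whether Dcn and Lum do so was not examined. The part of other cell types in the Sulf1 result was not tested.

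At the edge of the 100 kb rule the farthest region inside lay 91.0 kb from a span, and the nearest outside lay at 104 kb, close to the limit. The farthest Sulf1 regions inside it lay 87.7 kb below the span (3.04-fold young, 4.90-fold aged), and the nearest outside were 120 kb below in the young list (74.2-fold) and 104 kb below in the aged list (3.12-fold, with no young overlap). Above Sulf1 the farthest inside were at 81.4 kb (young, 17.2-fold) and 82.3 kb (aged, 13.4-fold), and the nearest outside at 126 kb in both lists (2.42-fold and 2.31-fold). For Sulf2 the farthest inside were 91.0 kb below in the young list (6.51-fold) and 90.7 kb below in the aged list (8.55-fold), and 60.4 kb (young, 2.64-fold) and 25.3 kb (aged, 3.03-fold) above. Outside, sites of 19.0-fold in each list lay 105 kb below and sites of 25.3-fold (young) and 32.8-fold (aged) 111 kb above.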

How the data were processed

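The series has 10 ATAC-seq libraries, and 2 peak lists, for young and aged cells after PGE2, were analysed. The submitters' processing notes name Bowtie2 as aligner and mm10, or GRCm38, as build. No label or file header states the peak caller's version and options, read filters, cut-site shift or pooling. The age and treatment of each list were read from its own name, as the lists have no header. The fold ratio, the −log10 q-value and the score of each summit are the authors' deposited values in the narrowPeak layout. The deposited score is the whole part of 10 times the −log10 q-value and was not used. Every fold below 50 was a whole multiple of 1 step (tolerance 0.05 steps). Assuming that the caller added 1 to summit and background alike, this gave a uniform background of 21.7 fragments (young) and 19.8 (aged) and the fragments at each summit. The unit is called a fragment here, but whether the caller counted fragments, reads or cut sites is not stated. The number of reads per library is unknown.

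Rows that touched or overlapped were merged (young 265507 into 131656, aged 215838 into 117284), keeping the summit with the highest −log10 q. Overlap meant at least 1 bp. Gene spans and starts came from RefSeq tables of GRCm38.p6. With 1 list for each age no test was possible, and none was made. Binomial intervals are exact Clopper-Pearson at 95%. Code ran in Python 3.11.15 with pandas 2.3.3 and scipy 1.17.1, and merging and overlap were tested on simulated regions. Members, gene lists and rules were chosen with earlier results of these data known. Named regions were the strongest, those at the gene start and up to 3 one-list regions for each gene and list. Named pathway genes were those with a gene end open in 1 list, the 2 strongest and the weakest of each gene list, and others as stated; 1 gene that this rule names is not reported here. The alternatives tried are given in the closing section.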

Additional observations from a re-analysis of the deposited data

How the results depend on the processing

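No paired analysis was possible because each age had 1 list with no value per library. For the same reason no replicate could be left out. In the 9 alternatives that recount regions, aged regions without an overlap outnumbered young ones at Sulf1 in all 9, and at Sulf2 in 6, with equal counts in 2 and more young ones (8 against 5) in 1, at a −log10 q of at least 5. Counts that moved by over 1.5 times are given next. In the strongest 58642 regions of each list, Sulf1 had 23 young and 37 aged regions, 23 overlapped in each list and 0 and 14 without overlap. Sulf2 then had 13 young and 17 aged regions, 12 overlapped in each list. Without overlap were 1 young (7.69%) and 5 aged (29.4%) Sulf2 regions, against 15.4% and 11.1% of the shortened lists. The aged count of 5 did not move by over 1.5 times. With rows as deposited, Sulf1 had 126 young and 177 aged rows, 124 and 132 of them overlapped, and Sulf2 had 58 young rows, 51 overlapped. Inside the span alone, Sulf2 had 13 young and 17 aged regions, 12 and 14 overlapped and 1 and 3 not. The strongest folds there were 15.1 (young) and 18.6 (aged), against 32.7 and 19.8 within 100 kb. Of these folds the aged one did not move by over 1.5 times. Assigned to the nearest gene, Sulf2 had 18 and 23, 16 and 20 overlapped and 2 and 3 not. Within 50 kb, Sulf2 had 23 young regions, 2 without overlap. With reciprocal overlap of 50%, those without overlap were 15 young at Sulf1, and 11 young and 16 aged at Sulf2. With summits within 100 bp they were 10 young at Sulf1 and 14 aged at Sulf2. Gene-end folds were equal with windows of 500 bp and 2.5 kb. The smallest summits held 39 (young) and 37 (aged) fragments, and the limit that depth sets was not tested, since reads per library are unknown.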
